A study of Mus musculus with 25 samples.

Results

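Colitis that arises when intestinal epithelial cells lack NEMO was examined here with and without the gene for the p35 subunit of interleukin-12 (Il12a). The comparison rests on 10 of the 25 libraries of the series: 5 labelled NEMOIEC-KO Il12a-/- and 5 labelled NEMOIEC-KO. They were taken by their labels, and no measured value was used to choose them. Each library holds poly(A) RNA from the distal colon of a separate C57BL/6 mouse aged 6 weeks, housed under SPF conditions on chow. Both groups share the NEMOIEC-KO genotype, in which the floxed gene for NEMO (Ikbkg) is removed in intestinal epithelial cells, and they differ by the label Il12a-/-. The labels name neither the Cre driver nor the construction of the Il12a allele. Reference groups of 5 mice each were Nemofl/fl, which carry the floxed allele only, NEMOIEC-KO Il12b-/- (p40) and NEMOIEC-KO Il23a-/- (p19). The series asks how loss of each subunit alters the inflamed colon of NEMOIEC-KO mice.

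NEMO is the regulatory subunit of the kinase that activates NF-kB, and epithelium without it is prone to cell death and to inflammation driven by bacteria. Interleukin-12 is a dimer of p35 and p40, made mainly by dendritic cells and macrophages, which acts through STAT4 in T cells and natural killer cells to promote interferon-gamma production. Interleukin-23 pairs the same p40 with p19 and maintains lymphocytes of the type 17 class. Interferon-gamma switches on guanylate-binding proteins, immunity-related GTPases, the immunoproteasome and both classes of MHC molecule, in epithelium as well as in myeloid cells.

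The targeted genes were examined first. Expression is given in FPKM, that is, sequenced fragments divided by transcript length and by library size. Ikbkg stood at 3.21 to 4.29 FPKM in the libraries labelled Il12a-/-, at 3.1 to 5.85 in NEMOIEC-KO and at 8.27 to 11.0 in Nemofl/fl, so both NEMOIEC-KO groups lay below all the floxed controls. The log2 difference between the first 2 was -0.06 ± 0.13 (SE; limma adjusted p = 0.79, n = 5 against 5). Il12a itself ran against its label. Its whole-gene FPKM was 0.61, 0.816, 1.98, 0.937 and 1.65 in replicates 1 to 5 of the libraries labelled Il12a-/-, against 0.238, 0.355, 0.956, 0.16 and 0.397 in NEMOIEC-KO. The difference was +0.87 ± 0.23 on the log2(FPKM + 0.5) scale (limma adjusted p = 0.023). It did not pass without Il12a-/- replicate 3, Il12a-/- replicate 5 or NEMOIEC-KO replicate 2 (highest limma adjusted p = 0.078). A whole-gene value does not show whether an exon is missing or whether a protein is made, so the groups are called below by their labels, and every direction given for the libraries labelled Il12a-/- depends on those labels. Il12b, the gene for p40, was at 0.0351 to 0.136 FPKM in them and at 0.0419 to 0.236 in NEMOIEC-KO. Il23a, the gene for p19, was at 0.105 to 0.361 and at 0.0827 to 0.805. Neither passed the test (limma adjusted p = 0.18 and 0.47).

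The 10 libraries had a relative depth of 0.838 to 1.16 and 13618 to 14374 genes at 1 FPKM or more. Epithelial markers were abundant in all of them, with Epcam at 815 to 1177 FPKM and the goblet cell mucin Muc2 at 817 to 2048, as the labelled tissue implies. Replicate 1 of the libraries labelled Il12a-/- stood apart from its group. In it, Nos2 was at 23.2 FPKM against 0.527 to 0.908 in replicates 2 to 5, and the chloride channel regulator Clca4b at 907 against 9.19 to 24.5. Its mean level of 14 smooth muscle genes, on the log2 scale, was 6.84 against 8.17 to 8.99 in the other 4. NEMOIEC-KO spanned 6.29 to 7.84 on that measure and Nemofl/fl 7.17 to 9.06, so smooth muscle markers moved with the groups, and their part in the results was not tested beyond the covariate given below. Library codes in the labels also moved with them: all 5 libraries labelled Il12a-/- carry code K002000079, NEMOIEC-KO replicates 1 and 2 carry it too, and NEMOIEC-KO replicates 3 to 5 carry K002000081. NEMOIEC-KO Il23a-/- replicate 5 alone carries K002000080, and it was left out of the fits with library code as a term or within the shared code. Counts of list members are therefore given also without Il12a-/- replicate 1, with the smooth muscle level as a covariate, and with library code as a term or within the shared code. In whole tissue, fewer cells of a type and less RNA per cell cannot be told apart. Sex, read from Xist and Y-linked RNA, also differed between groups. Females were 2 of 5 in the libraries labelled Il12a-/-, 1 of 5 in NEMOIEC-KO and 0 of 5 in Nemofl/fl. They were 2 of 5 in NEMOIEC-KO Il12b-/- and 4 of 5 in NEMOIEC-KO Il23a-/-. With sex as a term 2254 genes differed from NEMOIEC-KO.

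Of 19266 genes tested, 1851 differed between the libraries labelled Il12a-/- and NEMOIEC-KO at limma adjusted p below 0.05, which is 9.61% of all. Higher were 1080 genes (5.61%) and lower 771 (4.0%). Among changes of at least 2-fold 228 were decreases and 100 increases, but without Il12a-/- replicate 1 there were 395 decreases and 431 increases. The split of directions depended on scaling: 58.3% of called genes were higher as deposited, 46.7% after quantile normalization and 34.2% after median-of-ratios scaling, while the median log2 change over all genes was 0.07 as deposited and 0.0 after median-of-ratios scaling. For 993 genes (5.15%) the 2 groups of libraries did not overlap. Without Il12a-/- replicate 1 the test called 4836 genes (25.1%), 1846 of them among the 1851, with 3369 higher (17.5%) and 1467 lower (7.61%). Leaving out Il12a-/- replicate 2, 3, 4 or 5 gave 587, 735, 804 and 836, and leaving out NEMOIEC-KO replicate 2 or 3 gave 901 and 688. A call described below as lost without several libraries was lost when any of them was left out, 1 at a time. With library code as a term 176 genes passed, 86 of them lower (0.446%), and with smooth muscle as a covariate 153 passed. Within the shared code and with all 5 libraries labelled Il12a-/-, which leaves 2 NEMOIEC-KO mice, 31 genes passed. Among the gene lists described below, these held 2 genes of MHC class I presentation, 2 of class II and 1 other interferon-gamma target, and no member of any other list. Lists share members, so their counts are not separate results. Tap1 and Psmb9, for example, stand in both the class I list and the other interferon-gamma targets. Nlrc5 and Ciita stand in the signalling factors and in the class I and class II lists, respectively. Without replicate 1, 1962 passed within code K002000079, 538 of them lower (2.79%), and 716 passed with smooth muscle as a covariate, 281 of them lower (1.46%).

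Genes of type 1 and cytotoxic lymphocytes, the cells that respond to interleukin-12, were lower in the libraries labelled Il12a-/-. Of 16 such genes tested, 12 fell and none rose, with a median log2 change of -1.02 beside 0.07 for all genes. Gzma, a granule protease of cytotoxic lymphocytes, was at 1.04, 0.0839, 0.174, 0.326 and 0.167 FPKM in replicates 1 to 5 of the libraries labelled Il12a-/-. In NEMOIEC-KO it was at 3.57, 7.74, 10.6, 4.93 and 2.72, and Nemofl/fl spanned 0.0295 to 0.298. The groups did not overlap, and the log2 change was -2.85 ± 0.41 (limma adjusted p = 0.00032). Gzmb, a second granule protease, was at 0.19 to 0.77 FPKM against 1.33 to 3.53 (-1.69 ± 0.27, limma adjusted p = 0.00092). Tbx21, the transcription factor of the type 1 program, fell by 0.62 on the log2 scale (limma adjusted p = 0.014).

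Ifng, the gene for interferon-gamma, was at 0.202, 0.0191, 0, 0 and 0.0189 FPKM in the libraries labelled Il12a-/-, and at 0.114, 4.54, 4.12, 0.146 and 2.16 in NEMOIEC-KO. In NEMOIEC-KO, replicates 2, 3 and 5 stood far above all other mice, and replicates 1 and 4 lay below replicate 1 of the libraries labelled Il12a-/-. The change was -1.8 ± 0.51 (limma adjusted p = 0.031), and it missed the threshold when any 1 of 7 of the 10 libraries was left out, all but Il12a-/- replicate 1 and NEMOIEC-KO replicates 1 and 4 (highest limma adjusted p = 0.1). The list as a whole had 15 members lower without Il12a-/- replicate 1, 7 without Il12a-/- replicate 2, 3 or 4 or NEMOIEC-KO replicate 2, and 6 without NEMOIEC-KO replicate 3. Within the shared code 0 of 16 passed with all libraries and 5 were lower without replicate 1. With smooth muscle as a covariate 2 were lower with all libraries and 3 with library code as a term. Of 19 general T cell genes 1 was called, near the 4.0% of all genes called lower. It was Cd8a, the co-receptor of cytotoxic T cells, which fell by 0.78 on the log2 scale (limma adjusted p = 0.034). That call was lost without Il12a-/- replicate 2, 3 or 4 or NEMOIEC-KO replicate 2 or 3, and with the code term or the covariate. The mean log2 level of those 19 genes was 0.65 to 1.52 against 1.09 to 2.23 in NEMOIEC-KO.

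Among receptors and kinases of the interleukin-12 pathway 2 were called. Il12rb1, the receptor chain that binds p40, was at 0.119 to 0.494 FPKM in the libraries labelled Il12a-/- and at 0.442 to 1.46 in NEMOIEC-KO (-0.83 ± 0.22, limma adjusted p = 0.021). Jak2, a kinase bound to the interleukin-12 receptor, was at 10.3 to 16.7 FPKM against 16.9 to 20.8 (-0.53 ± 0.14, limma adjusted p = 0.02). Both calls were lost without Il12a-/- replicate 3 or NEMOIEC-KO replicate 3, Il12rb1 also without Il12a-/- replicate 5 or NEMOIEC-KO replicate 2, and Jak2 also without Il12a-/- replicate 2, and neither passed with library code as a term or smooth muscle as a covariate. Of the 11 genes of the interleukin-12 family tested, the remaining 8 did not pass, among them Il12rb2 (-0.27) and Stat4 (-0.07). Among type 17 genes, 1 of 11 was called, beside 5.61% of all genes higher. It was Il17f, a cytokine of type 17 cells, higher by 0.54 (limma adjusted p = 0.027). That call was lost without Il12a-/- replicate 2, 4 or 5 or NEMOIEC-KO replicate 2 or 4, and with the code term or the covariate. Without replicate 1, 2 type 17 genes were higher and 1 lower, beside 17.5% and 7.61% of all genes.

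Of 15 genes of interferon signalling tested, receptors included, 8 fell and none rose, against 4.0% of all genes lower. Whether the change in Ifng has a part in this was not tested. The receptor genes Ifngr1 and Ifngr2 differed by -0.08 and -0.1 and were not called, and those called lower included Stat2, Irf1, Irf7, Irf9, Socs1, Ciita and Nlrc5, which interferons are known to induce. Irf1, a transcription factor that interferon induces, was at 165, 117, 98.8, 113 and 115 FPKM against 209.8, 274, 254, 169.8 and 254, with no overlap (-0.93 ± 0.16, limma adjusted p = 0.0014). The count of 8 became 4 without Il12a-/- replicate 2 or NEMOIEC-KO replicate 2, and 5 without Il12a-/- replicate 3 or 5 or NEMOIEC-KO replicate 3. It was 9 without Il12a-/- replicate 1, 3 with library code as a term and 4 with smooth muscle as a covariate, and without replicate 1 it was 8 within the shared code and 5 with the covariate.

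Guanylate-binding proteins and immunity-related GTPases are induced by interferon-gamma and attack the vacuoles of intracellular microbes. Of 18 tested, 15 fell in the libraries labelled Il12a-/- and none rose, with a median of -1.86, against 4.0% of all genes lower. Leaving out each of the 10 libraries in turn gave 14 to 17. Without replicate 1, 14 fell within the shared code and 10 with smooth muscle as a covariate, while with all libraries 0 passed within the code and 4 with the covariate. Promoters of the members are shown here because the decrease can be set beside motifs known from interferon-responsive promoters. The sequences are the 150 bases before the start site in RefSeq GRCm38.p6, on the gene's strand. Capitals mark the gamma-activated site, searched as TTCNNNGAA, and the core of the interferon-stimulated response element, searched as GAAA, any 2 bases and GAAA, both on either strand.
Igtp: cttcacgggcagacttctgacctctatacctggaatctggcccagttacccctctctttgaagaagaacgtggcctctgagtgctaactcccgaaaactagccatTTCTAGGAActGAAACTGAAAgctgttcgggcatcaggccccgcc
Irgm2: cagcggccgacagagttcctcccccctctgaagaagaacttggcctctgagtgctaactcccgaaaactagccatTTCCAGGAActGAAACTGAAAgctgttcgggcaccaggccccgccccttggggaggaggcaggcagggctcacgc
Tgtp1: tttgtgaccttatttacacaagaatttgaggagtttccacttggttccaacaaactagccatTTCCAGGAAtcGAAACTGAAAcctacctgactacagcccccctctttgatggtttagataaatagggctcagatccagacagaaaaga
Tgtp2: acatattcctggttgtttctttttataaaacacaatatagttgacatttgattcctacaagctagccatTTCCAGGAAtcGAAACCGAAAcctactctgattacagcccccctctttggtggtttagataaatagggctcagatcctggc
Gbp7: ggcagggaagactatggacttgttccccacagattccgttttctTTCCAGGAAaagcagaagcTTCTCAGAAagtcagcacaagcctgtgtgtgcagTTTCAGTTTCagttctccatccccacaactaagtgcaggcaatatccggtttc
Gbp5: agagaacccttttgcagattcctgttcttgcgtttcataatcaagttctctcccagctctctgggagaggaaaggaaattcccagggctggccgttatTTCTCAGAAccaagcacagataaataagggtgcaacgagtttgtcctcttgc
Gbp2: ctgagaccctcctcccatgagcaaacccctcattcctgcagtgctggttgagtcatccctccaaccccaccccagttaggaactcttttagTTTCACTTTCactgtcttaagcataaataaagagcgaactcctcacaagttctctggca
Irf1: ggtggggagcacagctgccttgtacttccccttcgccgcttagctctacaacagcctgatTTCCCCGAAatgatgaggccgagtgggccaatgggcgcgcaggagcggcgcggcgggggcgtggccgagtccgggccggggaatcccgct

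The stretches lie at chr11:58199406-58199555 (plus strand) for Igtp, chr11:58214827-58214976 (plus) for Irgm2, chr11:48992247-48992396 (minus) for Tgtp1 and chr11:49064213-49064362 (minus) for Tgtp2. Those of the other 4 lie at chr3:142530186-142530335 for Gbp7, chr3:142496784-142496933 for Gbp5, chr3:142620513-142620662 for Gbp2 and chr11:53769864-53770013 for Irf1, all on the plus strand. In all 4 immunity-related GTPase genes printed, the first bases of a gamma-activated site and of a response element core lay 11 bases apart. They began at -45 and -34 relative to the start in Igtp and at -75 and -64 in Irgm2. In Igtp the site ended at -37, so the stretches nearly touched. In Tgtp1 the site and the core began at -88 and -77, and in Tgtp2 at -81 and -70. Gbp7 held 2 gamma-activated sites, at -106 and -87, and a response element core at -53. Gbp5 held only the site at -52, Irf1 only the one at -90, and Gbp2 only a response element core at -59. A second Irf1 promoter of the table, at chr11:53770323-53770472 and not printed, held neither in its 150 bases. The pattern did not extend to the whole family: of the 2 further immunity-related GTPases with a promoter in the table, Irgm1 held response element cores and no gamma-activated site in these 150 bases, and Ifi47 held neither. In the whole window of the table, 250 bases before to 50 after the start, 6 of 11 promoters of the list held the site and 10 the response element core. In that window the site occurred in 1 of 13 MHC class I promoters, 1 of 9 class II and 3 of 20 other interferon-gamma targets. The core occurred in 4, 1 and 4 of them. All sequences printed hold a motif, but not every gene called lower did. Cxcl9, Ubd, Tap1, Psmb9 and H2-Aa held neither in their 150 bases.

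Over all promoters in the table the site occurred in 8.3% of 32851 and the core in 3.44%. Among genes tested with a promoter in the table the shares were 8.39% and 3.96% of 12716. Of 506 promoters of genes called lower, 11.9% held the site and 12.8% the core. Of 142 promoters of genes lower by at least 2-fold, 16.2% and 21.1% did. Of 779 promoters of genes called higher, 8.22% and 2.82% did. The shares among genes called lower without Il12a-/- replicate 1 were 10.3% and 9.44% of 985. The stricter letters TTCCNGGAA gave 3.16% among genes called lower and 1.48% among genes tested. A match is a description of the letters and does not show that a factor was bound.

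Igtp, an immunity-related GTPase, was at 40.1, 14.0, 11.3, 19.0 and 18.4 FPKM in the libraries labelled Il12a-/- and at 61.0, 139, 156, 37.8 and 116 in NEMOIEC-KO, with 4.95 to 7.64 in Nemofl/fl. Replicate 1 lay just above the lowest NEMOIEC-KO mouse and the other 4 below all of them (-2.24 ± 0.44, limma adjusted p = 0.0047). Gbp2 was at 83.9, 22.5, 22.6, 33.4 and 50.6 FPKM against 153, 257, 286, 88.8 and 232, with no overlap (-2.31 ± 0.42, limma adjusted p = 0.0025). Gbp8 had the smallest p of the list, at 0.832 to 3.51 FPKM against 6.33 to 15.6 (-2.4, limma adjusted p = 0.00026). Iigp1 had the largest log2 change of the list (-3.08 ± 0.58, limma adjusted p = 0.0038), from 14.9 to 71.2 FPKM down to 1.61 to 17.2. The near-identical copies Tgtp1 and Tgtp2, between which reads can be divided either way, fell by 2.77 and 2.81 on the log2 scale. The 3 members that did not pass were Gbp2b (-0.33), Gbp10 (-0.41) and Gbp11 (-0.42), all with a negative value.

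**Figure D1:**
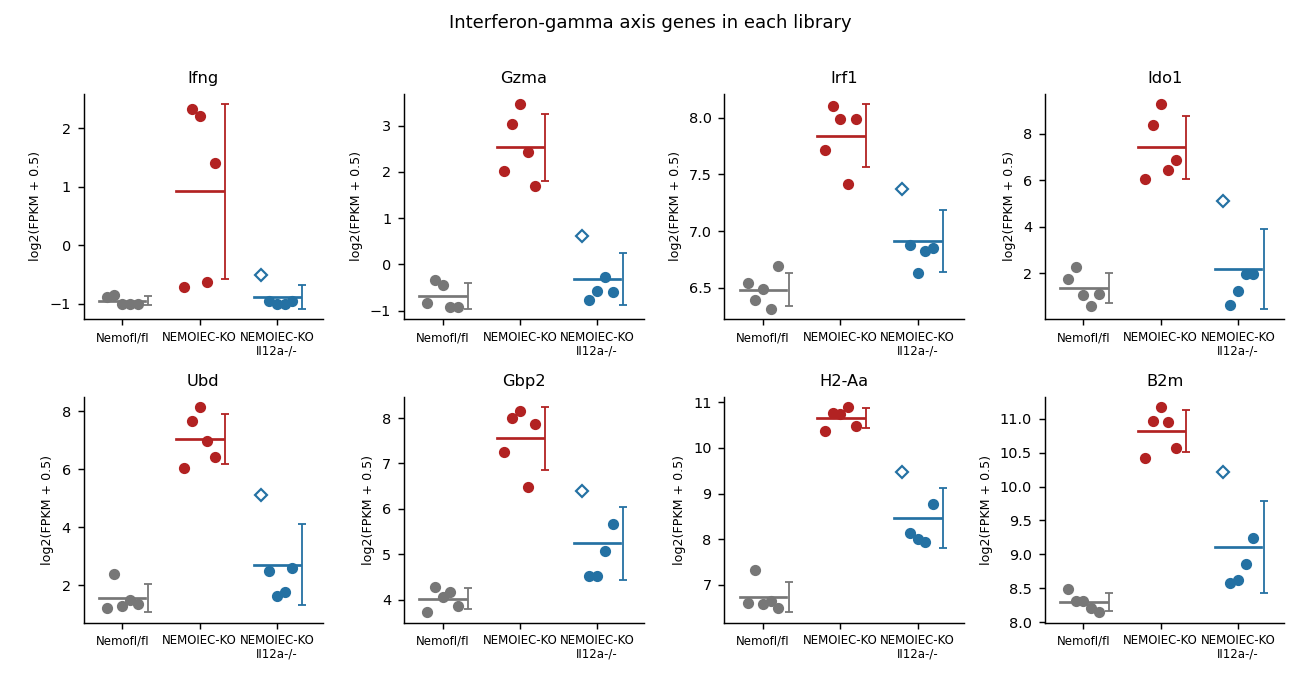
FPKM on a log axis of 8 genes of the interferon-gamma response in each library of Nemofl/fl, NEMOIEC-KO and NEMOIEC-KO Il12a-/-, 1 point per mouse, with Il12a-/- replicate 1 as an open symbol. For H2-Aa all 5 mice labelled Il12a-/- (243 to 707 FPKM) lie below all 5 NEMOIEC-KO mice (1322 to 1911), while for Ifng 2 NEMOIEC-KO mice lie at the level of the double mutants.

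Other interferon-gamma targets fell in 22 of 26 cases, with none higher and a median of -1.04. Ido1, the tryptophan-degrading enzyme, had the largest log2 decrease of the list. It was at 33.8, 1.09, 1.87, 3.4 and 3.39 FPKM in replicates 1 to 5 of the libraries labelled Il12a-/-, and at 65.8, 331, 623, 86.9 and 118 in NEMOIEC-KO, where Nemofl/fl spanned 1.04 to 4.31. Replicates 2 to 5 thus lay within the range of the floxed controls and replicate 1 below every NEMOIEC-KO mouse (-5.22 ± 0.8, limma adjusted p = 0.00062; -5.95 without replicate 1). Ubd, a ubiquitin-like modifier, was at 33.8, 5.05, 2.56, 2.9 and 5.6 FPKM against 65.4, 201, 285, 127 and 86.0 (-4.35 ± 0.6, limma adjusted p = 0.00022). Nos2, the inducible nitric oxide synthase, was at 23.2, 0.908, 0.527, 0.589 and 0.704 FPKM against 17.4, 43.9, 69.9, 9.41 and 37.0. Here replicate 1 lay inside the NEMOIEC-KO range (-3.76 ± 0.73, limma adjusted p = 0.0042, and -4.63 without it). Cxcl9, which attracts type 1 lymphocytes through CXCR3, fell by 2.9 on the log2 scale (limma adjusted p = 0.012). The list had 24 members lower without replicate 1, 14 without Il12a-/- replicate 2 or NEMOIEC-KO replicate 3, and 16 within the shared code without replicate 1. With all libraries 1 was lower within that code, 7 with library code as a term and 7 with smooth muscle as a covariate (median -0.72), and 11 with the covariate without replicate 1.

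Genes of MHC class I presentation were lower in 16 of 16 cases, with a median of -1.29. The count was 16 with each of the 10 libraries left out in turn, 13 with smooth muscle as a covariate and 15 within the shared code without replicate 1; with all 5 libraries labelled Il12a-/- against NEMOIEC-KO replicates 1 and 2 it was 2. B2m, the light chain of class I molecules, was at 1193, 382, 392, 465 and 607 FPKM against 1373, 2001, 2308, 1971 and 1525 in NEMOIEC-KO, with no overlap (-1.71 ± 0.25, limma adjusted p = 0.00036). Nlrc5, the transactivator of class I genes, was at 17.9, 4.16, 3.41, 4.63 and 5.85 FPKM against 20.3, 36.3, 40.3, 19.8 and 28.7 (-2.15 ± 0.34, limma adjusted p = 0.00084). Its level in Nemofl/fl was 0.847 to 1.3, below every library labelled Il12a-/-. H2-Q7, a non-classical class I gene, fell by 2.42 on the log2 scale, the peptide transporter Tap1 by 1.85 and the immunoproteasome subunit Psmb9 by 1.72 (limma adjusted p = 0.0024, 0.0015 and 0.00026).

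Of 12 genes of MHC class II presentation 7 fell, with a median of -1.82, and the count was 7 with each of the 10 libraries left out, with smooth muscle as a covariate, and within the shared code without replicate 1. With all 5 libraries labelled Il12a-/- within that code it was 2. H2-Aa, the class II alpha chain, was at 707, 281, 255, 243 and 435 FPKM in the libraries labelled Il12a-/- and at 1322, 1734, 1717, 1911 and 1441 in NEMOIEC-KO, without overlap (-2.2 ± 0.25, limma adjusted p = 1.5e-05). The invariant chain Cd74 fell by 2.16 on the log2 scale and the peptide-loading chain H2-DMb1 by 2.19 (limma adjusted p = 4e-05 for both). Ciita, the transactivator of class II genes, was at 1.9 to 7.34 FPKM against 7.03 to 20.4 (-1.79 ± 0.34, limma adjusted p = 0.0036).

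Members of the class II list that B cells preferentially express had positive values and did not pass the test. H2-Ob, a chain of the peptide-loading modulator H2-O, was at 6.98, 10.5, 6.7, 5.99 and 15.7 FPKM in the libraries labelled Il12a-/- against 3.75, 4.45, 6.11, 2.97 and 4.99 in NEMOIEC-KO (+0.91, limma adjusted p = 0.2). Its partner H2-Oa was at 4.89 to 10.3 against 2.04 to 4.88 (+0.85, limma adjusted p = 0.14). B cell markers had positive values too. The mean log2 level of 14 of them was 2.13 to 3.18 in the libraries labelled Il12a-/- and 0.63 to 1.79 in NEMOIEC-KO, without overlap, and the median change was +1.04. Only Fcer2a, the low-affinity IgE receptor of B cells, passed, at 3.23, 9.3, 6.01, 5.63 and 11.6 FPKM against 2.06, 1.83, 1.91, 0.567 and 2.81 (+1.69 ± 0.52, limma adjusted p = 0.044). That call was lost when any 1 of 8 libraries was left out, all but Il12a-/- replicate 1 and NEMOIEC-KO replicate 5 (highest limma adjusted p = 0.11). Without replicate 1, 3 of the 14 passed, all higher, beside 17.5% of all genes. With library code as a term or smooth muscle as a covariate 0 passed.

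**Figure D2:**
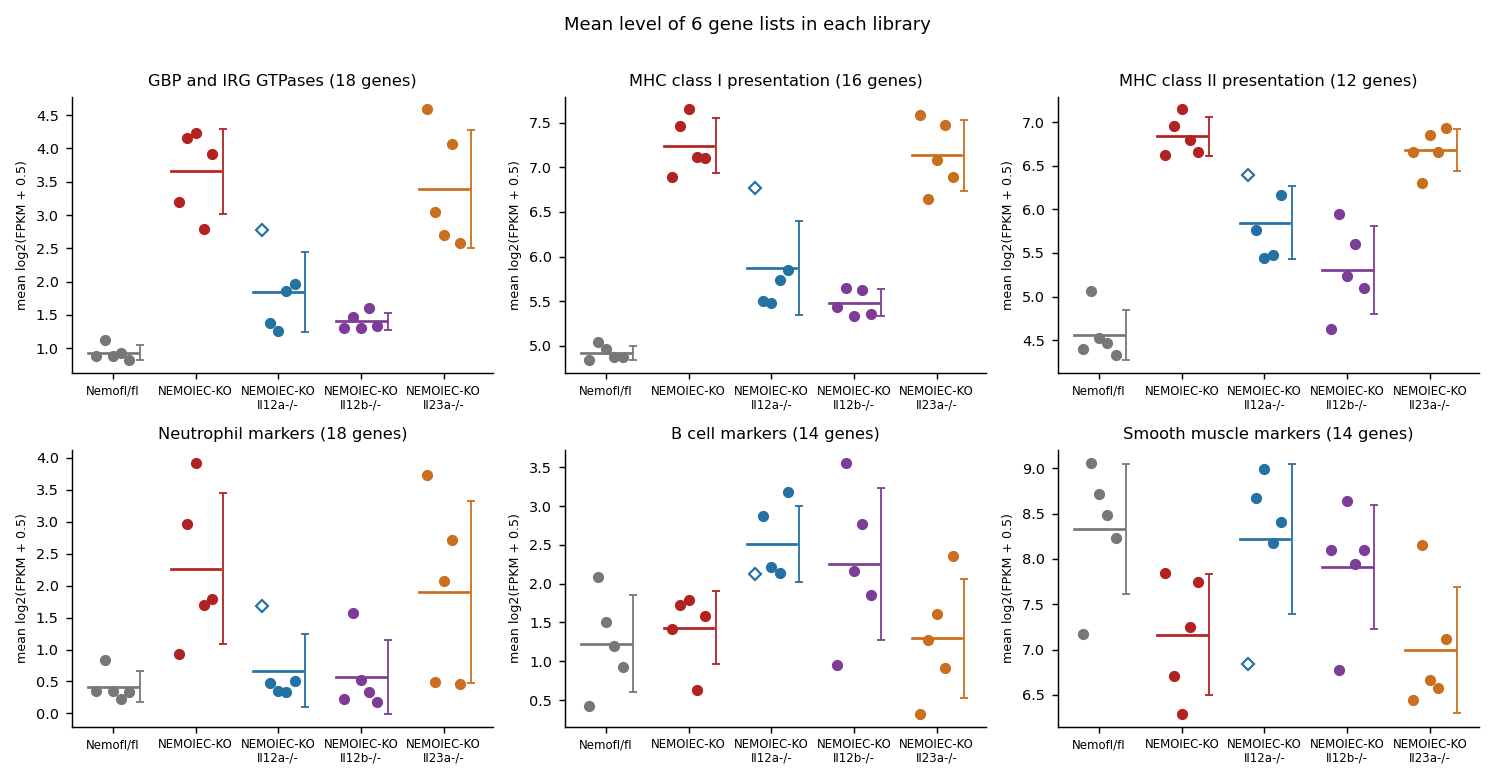
Mean log2(FPKM + 0.5) of the members of 6 gene lists in each of the 25 libraries, by genotype; points are mice, the bar is the mean, the whisker the SD and the open diamond Il12a-/- replicate 1. For MHC class I the libraries labelled Il12a-/- span 5.48 to 6.77 and NEMOIEC-KO 6.89 to 7.65, and for B cell genes the order of the 2 groups is the opposite.

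Btnl2, a butyrophilin-like gene beside the class II locus, was also lower. It was at 3.54, 0.594, 0.46, 0.725 and 0.913 FPKM in the libraries labelled Il12a-/- and at 6.6, 9.35, 8.75, 7.53 and 6.27 in NEMOIEC-KO, with 0.122 to 0.24 in Nemofl/fl. Every library labelled Il12a-/- lay between the other 2 groups (-2.45 ± 0.26, limma adjusted p = 5.5e-06). With library code as a term the limma adjusted p was 0.002.

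Genes of the type I interferon response, some of which interferon-gamma also induces, fell in 19 of 27 cases with a median of -0.81. Ifit2, an antiviral RNA-binding protein, was at 7.9, 1.64, 1.74, 3.03 and 2.21 FPKM against 9.89, 22.5, 26.9, 11.7 and 14.2, with no overlap (-2.32, limma adjusted p = 0.0009). Oas3, a sensor of double-stranded RNA, was at 1.95 to 9.29 against 6.63 to 23.3 FPKM and overlapped through replicate 1 (-1.59, limma adjusted p = 0.0057). The count was 23 without replicate 1, 9 without Il12a-/- replicate 2 or 3, and 10 without NEMOIEC-KO replicate 2. With library code as a term or smooth muscle as a covariate it was 2, and without replicate 1 it was 9 with that covariate and 18 within the shared code.

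Inflammatory cytokines were lower in 5 of 18 cases and higher in 1, against 4.0% and 5.61% of all genes. Tnf, a driver of epithelial cell death, was at 1.42, 0.861, 0.667, 0.365 and 0.853 FPKM in the libraries labelled Il12a-/- and at 2.56, 8.75, 9.93, 1.53 and 3.02 in NEMOIEC-KO, all above (-1.84, limma adjusted p = 0.0082). Il1b, the inflammasome cytokine, was at 2.94, 0.834, 0.541, 1.5 and 1.89 against 2.24, 53.9, 100.3, 4.28 and 19.2 FPKM. NEMOIEC-KO mice thus spanned a wider range than the mice labelled Il12a-/- (-3.18, limma adjusted p = 0.025, lost without Il12a-/- replicate 2, 3 or 4 or NEMOIEC-KO replicate 2 or 3). Il18, an epithelial cytokine, was the member that rose (+0.45, limma adjusted p = 0.04, lost without Il12a-/- replicate 2, 3 or 5 or NEMOIEC-KO replicate 2, 3 or 5). Leaving out 1 library gave 3 to 10 members lower, with 3 without Il12a-/- replicate 2 or 4 or NEMOIEC-KO replicate 2 or 3, and 9 and 10 without NEMOIEC-KO replicates 1 and 4. No cytokine was lower with library code as a term or with smooth muscle as a covariate, the latter with or without replicate 1, and 2 were lower within the shared code without it.

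Neutrophil genes varied widely within NEMOIEC-KO. The mean log2 level of 18 of them was 0.34 to 0.5 in replicates 2 to 5 of the libraries labelled Il12a-/-, 1.68 in replicate 1 and 0.93 to 3.92 in NEMOIEC-KO. The median change was -1.44, yet 3 of 18 passed. S100a9, a subunit of calprotectin, was at 13.9, 1.34, 0.483, 0.605 and 0.806 FPKM against 3.95, 134, 319, 21.0 and 20.7 (-4.23, limma adjusted p = 0.047, lost without Il12a-/- replicate 2, 3, 4 or 5 or NEMOIEC-KO replicate 2, 3, 4 or 5). Without Il12a-/- replicate 1 or NEMOIEC-KO replicate 1, 8 of 18 passed, and none did without Il12a-/- replicate 2, 3, 4 or 5 or NEMOIEC-KO replicate 2 or 3. With library code as a term or smooth muscle as a covariate 0 of 18 passed, and without replicate 1 the counts were 1 within the shared code and 2 with the covariate. Limma called none of 6 neutrophil chemoattractants (median -1.48; 5 at an unadjusted p below 0.05), and without Il12a-/- replicate 1 it called 3.

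Other leukocyte lists moved in part. Beside the counts below, 4.0% of all genes were lower, and 7.61% without Il12a-/- replicate 1. Of 22 monocyte and macrophage genes 4 fell, among them Fcgr4, an activating IgG receptor, at 0.828 to 3.66 FPKM against 3.17 to 23.2 (-2.08 ± 0.49, limma adjusted p = 0.013), which passed with each library left out. The 4 became 1 without Il12a-/- replicate 2, 3 or 4 or NEMOIEC-KO replicate 2 or 3, and 9 and 8 without replicate 1 of either group. It was 0 with the code term or the covariate, and also without replicate 1 within the shared code or with the covariate. Regulatory T cell and checkpoint genes fell in 6 of 12 cases, with a median of -0.69, in 3 without Il12a-/- replicate 2 or NEMOIEC-KO replicate 3 and in 4 without Il12a-/- replicate 3 or NEMOIEC-KO replicate 2. The count was 9 without Il12a-/- replicate 1 and 0 with the code term or the covariate (median -0.33 with the covariate), and without replicate 1 it was 4 within the shared code and 1 with the covariate. Tnfrsf8 (CD30), a receptor of activated lymphocytes, was at 14.3, 1.43, 1.91, 1.27 and 1.41 FPKM against 13.1, 13.2, 14.9, 10.6 and 8.1 (-2.04 ± 0.46, limma adjusted p = 0.011). Replicate 1 lay at the NEMOIEC-KO level and the other 4 below every NEMOIEC-KO mouse. Ctla4, an inhibitory T cell receptor, fell by 1.24 on the log2 scale (limma adjusted p = 0.014), but not without Il12a-/- replicate 2 or NEMOIEC-KO replicate 3. Of 12 mast cell, eosinophil and type 2 genes 5 fell, with Mcpt1 and Mcpt2, proteases of mucosal mast cells, at -2.24 and -2.27 (limma adjusted p = 0.039 and 0.033, each lost without Il12a-/- replicate 2, 3, 4 or 5 or NEMOIEC-KO replicate 2 or 5). The count of 5 became 0 without Il12a-/- replicate 2 or 4, 1 without Il12a-/- replicate 3 or NEMOIEC-KO replicate 2, 2 without Il12a-/- replicate 5 or NEMOIEC-KO replicate 3 or 5, and 6 without Il12a-/- replicate 1. It was 0 with the code term or the covariate. Of 16 plasma cell genes 2 fell: Prdm1, which drives plasma cell differentiation, by 1.23 (limma adjusted p = 0.0088), and Jchain, the joining chain of IgA and IgM, by 1.54 (limma adjusted p = 0.044, lost without Il12a-/- replicate 2, 3, 4 or 5 or NEMOIEC-KO replicate 2, 3 or 4). Plasma cell genes were lower in 5 cases without Il12a-/- replicate 1, 4 without NEMOIEC-KO replicate 1 and 3 without NEMOIEC-KO replicate 5. The count was 1 without Il12a-/- replicate 2, 3, 4 or 5 or NEMOIEC-KO replicate 2, 3 or 4, and 0 with the code term or the covariate.

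**Figure D3:**
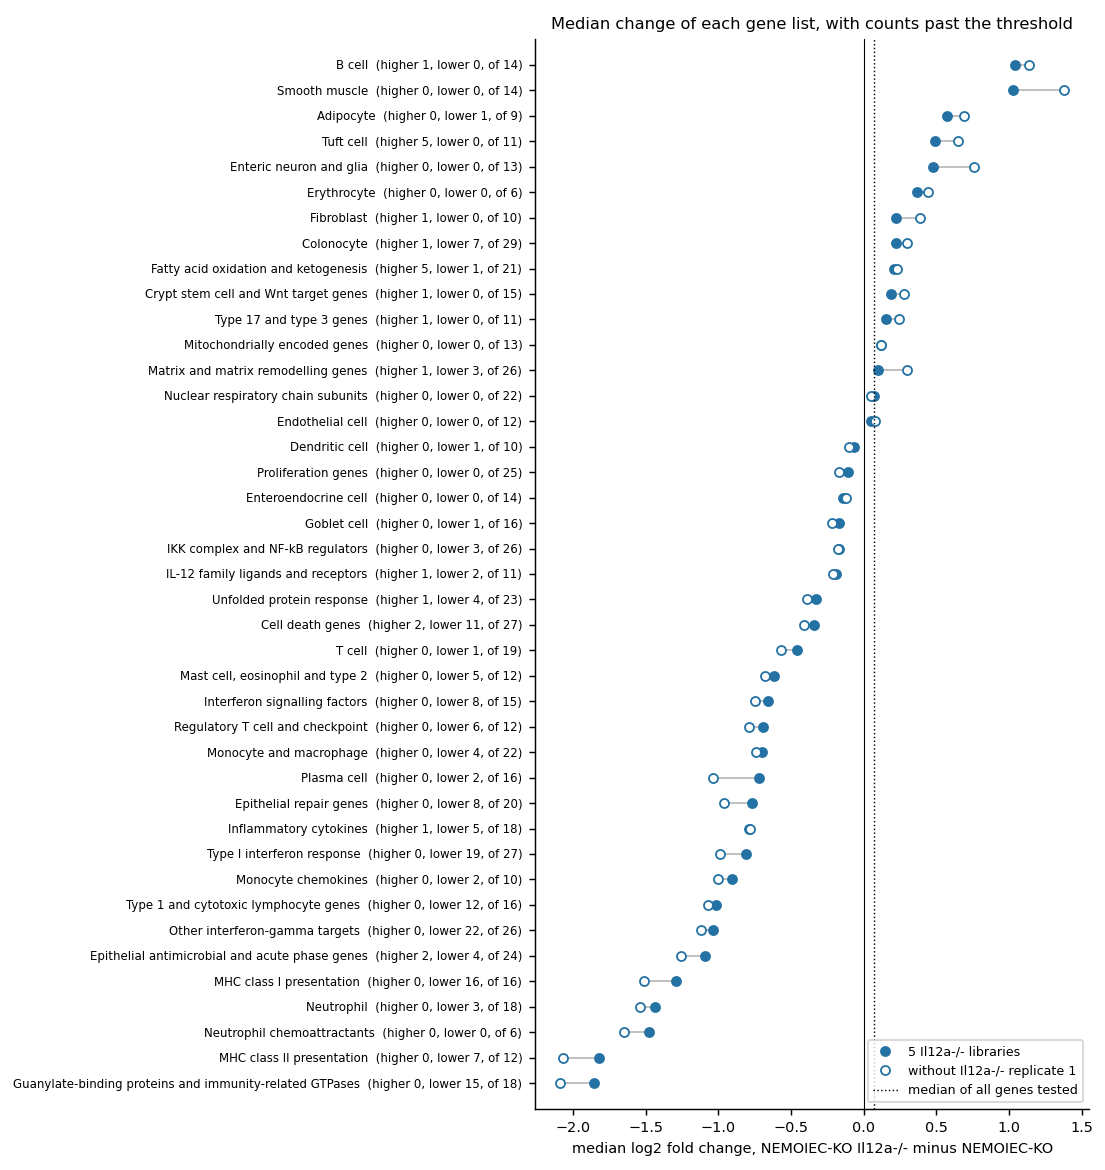
Median log2 change of the tested members of 41 gene lists, NEMOIEC-KO Il12a-/- minus NEMOIEC-KO; filled points use all 5 libraries labelled Il12a-/-, open points leave out replicate 1, and the dotted line is the median of all genes (0.07). The guanylate-binding protein and immunity-related GTPase list is at -1.86, MHC class II at -1.82 and B cell genes at +1.04.

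Some genes of fatty acid oxidation and ketone metabolism were higher in the libraries labelled Il12a-/-, in RNA of the whole tissue. Of 21 genes tested, 5 rose and 1 fell, against 5.61% and 4.0% of all genes, and the median change was +0.21. Acaa2, a mitochondrial thiolase, was at 47.2 to 85.3 against 32.9 to 48.9 FPKM (+0.76, limma adjusted p = 0.0016). Bdh1, a dehydrogenase that interconverts the ketone bodies, was at 54.5, 63.2, 64.9, 60.7 and 56.8 FPKM against 42.5, 44.3, 41.0, 49.6 and 48.4, with no overlap (+0.41 ± 0.07, limma adjusted p = 0.0022). Acadl, the long-chain acyl-CoA dehydrogenase, went the other way, at 57.0 to 83.8 against 112 to 156 FPKM (-0.79, limma adjusted p = 0.0014). The counts lay between 5 and 8 higher, with 1 lower, whichever library was left out, and at 3 higher with library code as a term or smooth muscle as a covariate. The 8 were reached without Il12a-/- replicate 1 or NEMOIEC-KO replicate 4. Limma called none of 22 nuclear respiratory chain subunits and none of 13 mitochondrially encoded genes (3 and 0 at an unadjusted p below 0.05).

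Coq8a, a kinase-like protein of coenzyme Q synthesis, was higher in every library labelled Il12a-/- than in any of NEMOIEC-KO. It was at 11.0, 16.9, 16.8, 16.3 and 18.1 FPKM in the libraries labelled Il12a-/- and at 6.47, 6.16, 4.81, 6.32 and 6.73 in NEMOIEC-KO, with 20.2 to 24.8 in Nemofl/fl. The 3 groups did not overlap (+1.3 ± 0.14, limma adjusted p = 5.5e-06, and 0.0027 with library code as a term). Sult1c2, a sulfotransferase, rose by 1.46 (limma adjusted p = 0.0017), Cbr3, a carbonyl reductase, by 1.46 (limma adjusted p = 0.0052) and Smpx, a small muscular protein, by 2.05 (limma adjusted p = 0.0016). Slc30a10, a manganese exporter of the surface epithelium, was at 0.117, 2.67, 7.68, 6.0 and 3.12 FPKM against 0.0665 to 0.315. Replicate 1 lay within the NEMOIEC-KO range and the others near the controls, which spanned 3.31 to 10.3 (+2.32 ± 0.61, limma adjusted p = 0.022, lost without Il12a-/- replicate 2, 3, 4 or 5 or NEMOIEC-KO replicate 3; +2.92 without replicate 1, limma adjusted p = 0.00086).

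Colonocyte markers did not move as one. Of 29 tested, 1 rose and 7 fell, against 5.61% and 4.0% of all genes. Without Il12a-/- replicate 1 it was 6 and 10, against 17.5% and 7.61%. Falls numbered 1 without Il12a-/- replicate 2 or 5, 3 without Il12a-/- replicate 3 or 4 or NEMOIEC-KO replicate 2 or 3, and 4 without NEMOIEC-KO replicate 1. With library code as a term or smooth muscle as a covariate 0 rose and 0 fell. Clca4b was at 907, 18.3, 15.0, 9.19 and 24.5 FPKM against 593, 428, 720.1, 401 and 416, and at 2.22 to 9.23 in Nemofl/fl (-3.77 ± 0.99, limma adjusted p = 0.022, lost without Il12a-/- replicate 2, 3, 4 or 5 or NEMOIEC-KO replicate 3; -4.93 without replicate 1, limma adjusted p = 0.00022). Replicate 1 exceeded every NEMOIEC-KO mouse for this gene. Krt20, a keratin of differentiated surface cells, was at 886, 456, 496, 466 and 484 FPKM against 747 to 864 (-0.59, limma adjusted p = 0.023, lost without Il12a-/- replicate 2, 3, 4 or 5 or NEMOIEC-KO replicate 2 or 3). The water channel Aqp8 (+1.82) and the carbonic anhydrase Car4 (+1.22) were not called (limma adjusted p = 0.11 and 0.23).

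**Figure D4:**
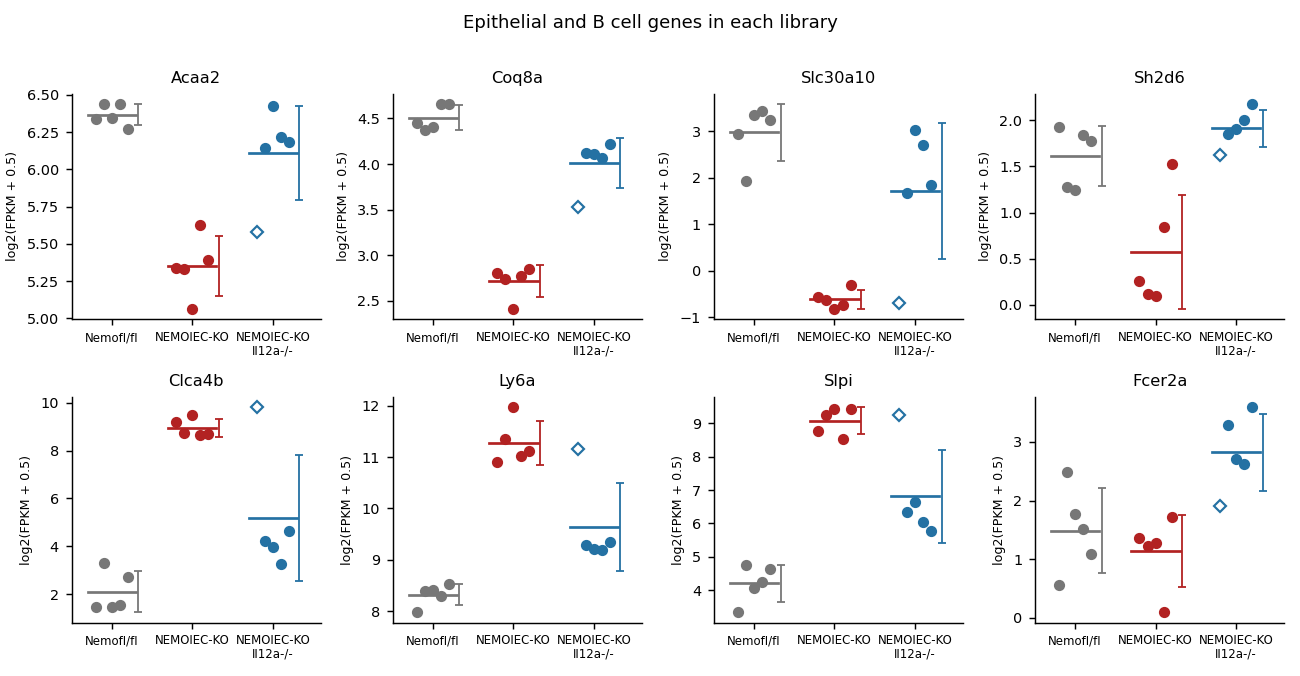
FPKM on a log axis of 8 epithelial and other genes in each library of Nemofl/fl, NEMOIEC-KO and NEMOIEC-KO Il12a-/-, 1 point per mouse, with Il12a-/- replicate 1 as an open symbol. Coq8a separates all 3 groups, while Il12a-/- replicate 1 lies within the NEMOIEC-KO range for Slc30a10 and above it for Clca4b, and the other 4 lie nearer to Nemofl/fl.

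Repair genes of injured epithelium fell in 8 of 20 cases and none rose, with a median of -0.77. Ly6a (Sca-1), a marker of regenerating epithelium that interferon also induces, was at 2285, 625, 589, 581 and 647 FPKM against 1924, 2624, 4026, 2079 and 2233, where Nemofl/fl spanned 252 to 367 (-1.64 ± 0.39, limma adjusted p = 0.013; -2.02 without replicate 1). The list had 12 members lower without replicate 1, 2 without Il12a-/- replicate 2, 3 or 4 or NEMOIEC-KO replicate 3, 4 without Il12a-/- replicate 5 or NEMOIEC-KO replicate 2, and 5 without NEMOIEC-KO replicate 5. It had 0 with the code term or the covariate, and without replicate 1 it had 5 within the shared code and 2 with the covariate. Of 24 antimicrobial and acute phase genes 2 were higher and 4 lower, against 5.61% and 4.0% of all genes. Without Il12a-/- replicate 1 the counts were 4 and 9, against 17.5% and 7.61%, so the share higher lay near that of all genes. The count lower was 1 without any of Il12a-/- replicates 2 to 5 or NEMOIEC-KO replicate 2 or 3. Neither direction had a call with the code term or the covariate. Slpi, a protease inhibitor of mucosal surfaces, was at 609, 80.7, 99.1, 65.7 and 53.7 FPKM against 368 to 690.4 (-2.27, limma adjusted p = 0.049, lost without any 1 of 9 libraries, all but Il12a-/- replicate 1). Ang4, an angiogenin of crypt cells, rose by 2.69 (limma adjusted p = 0.022), from 1.11 to 3.16 FPKM to 19.9, 18.1, 1.56, 24.3 and 81.7, and not without Il12a-/- replicate 2, 4 or 5. Mptx1, a mucosal pentraxin, was at 304, 2215, 909.9, 1522 and 2243 FPKM against 22.2 to 369.9 (+3.38, limma adjusted p = 0.025, lost without Il12a-/- replicate 2, 3, 4 or 5 or NEMOIEC-KO replicate 3). The lectin Reg3b was not called (-2.33, limma adjusted p = 0.26), and passed without replicate 1 (-3.82, limma adjusted p = 0.018).

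Tuft cell genes were higher in 5 of 11 cases, none lower, with a median of +0.49. Sh2d6, an adaptor enriched in tuft cells, was at 2.59, 3.12, 3.24, 3.51 and 4.03 FPKM against 0.699, 0.585, 0.57, 1.3 and 2.39, without overlap (+1.34 ± 0.27, limma adjusted p = 0.0057), and passed with each library left out. Trpm5, the taste transduction channel, and Ltc4s, which makes cysteinyl leukotrienes, rose by 0.99 and 1.02 (limma adjusted p = 0.02 and 0.019), and neither call held throughout: Trpm5 was lost without Il12a-/- replicate 2, 4 or 5 or NEMOIEC-KO replicate 3, and Ltc4s without Il12a-/- replicate 2, 3 or 5 or NEMOIEC-KO replicate 2. The count was 7 without Il12a-/- replicate 1, 1 without Il12a-/- replicate 5, and 2 without Il12a-/- replicate 2, 3 or 4 or NEMOIEC-KO replicate 2. With library code as a term 2 tuft cell genes were higher, and with smooth muscle as a covariate 0 with all libraries and 1 without replicate 1. Of 15 stem cell and Wnt target genes 1 rose, near the 5.61% of all genes: Lrig1, a brake on growth factor receptors (+0.45, limma adjusted p = 0.0091). Of the 15, 6 rose without Il12a-/- replicate 1, beside 17.5% of all genes, 3 without NEMOIEC-KO replicate 1, and 0 with the covariate. None of 25 proliferation genes was called by limma (median -0.11; 0 at an unadjusted p below 0.05).

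Cell death genes fell in 11 of 27 cases and rose in 2, against 4.0% and 5.61% of all genes. The share higher thus lay near that of all genes. Without Il12a-/- replicate 1 it was again 2 of 27, beside 17.5% of all genes. The number lower was 8 to 16 with 1 library left out, 1 with library code as a term and 2 with smooth muscle as a covariate, and without replicate 1 it was 10 within the shared code and 5 with the covariate. No member was higher with the code term or the covariate. Zbp1, a nucleic acid sensor of necroptosis that interferon induces, was at 133, 46.7, 50.5, 73.4 and 62.7 FPKM against 132, 241, 260.0, 115 and 192 (-1.39, limma adjusted p = 0.0034). Its partner kinase Ripk3 fell by 1.33 (limma adjusted p = 0.034, lost without Il12a-/- replicate 2, 3, 4 or 5 or NEMOIEC-KO replicate 2, 3 or 5), and the executioner Mlkl fell by 1.08 (limma adjusted p = 0.0085). Both increases were in epithelial gasdermins. Gsdmc3 was at 57.1, 136, 99.2, 121 and 112 FPKM against 74.4, 57.2, 23.2, 33.9 and 66.0 (+1.1 ± 0.25, limma adjusted p = 0.011), and Gsdmc2 was higher by 0.74 (limma adjusted p = 0.018), but not without Il12a-/- replicate 2 or NEMOIEC-KO replicate 3. Of 26 genes of the IKK complex and NF-kB regulation, 3 fell and none rose, against 4.0% and 5.61% of all genes. The count was 6 lower and 1 higher without Il12a-/- replicate 1, and 5 lower without NEMOIEC-KO replicate 4. It was 1 lower without any of Il12a-/- replicates 2 to 5 or NEMOIEC-KO replicate 3, and 0 with the code term or the covariate. Nfkbiz, an atypical IkB protein, fell by 0.58 (limma adjusted p = 0.018), but not without Il12a-/- replicate 4 or 5.

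Of 26 matrix genes 3 fell and 1 rose, against 4.0% and 5.61% of all genes. Without Il12a-/- replicate 1, 8 rose and 3 fell (median +0.3), while over all genes 17.5% rose and 7.61% fell. With the code term or the covariate 0 passed in either direction. The 3 that fell were the matrix-degrading enzymes Mmp7, Mmp10 and Mmp13 (-3.07, -2.77 and -2.54, limma adjusted p = 0.022, 0.025 and 0.038), and Mmp7 was lost without Il12a-/- replicate 2, 3, 4 or 5 or NEMOIEC-KO replicate 2 or 3, Mmp10 without Il12a-/- replicate 2, 3 or 5 or NEMOIEC-KO replicate 2, 3 or 5, and Mmp13 without Il12a-/- replicate 2, 3, 4 or 5 or NEMOIEC-KO replicate 2, 3 or 5. The 1 that rose, Col6a1, is a microfibril collagen (+0.6, limma adjusted p = 0.039, lost without Il12a-/- replicate 2, 3, 4 or 5 or NEMOIEC-KO replicate 2, 3 or 5). Smooth muscle genes had a median of +1.03, and limma called none of 14 (11 at an unadjusted p below 0.05). Without Il12a-/- replicate 1, 12 of 14 passed with a median of +1.38, and 10 of 13 enteric neuron and glia genes did. Lmod1, a smooth muscle actin nucleator, was at 14.7 FPKM in replicate 1, at 43.7 to 52.0 in replicates 2 to 5 and at 11.2 to 24.6 in NEMOIEC-KO.

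Against Nemofl/fl, 259 genes (1.34%) differed, and 149 of them were higher in the libraries labelled Il12a-/- (0.773%). This comparison asks which genes still lay above the floxed controls. MHC class II genes were higher in 7 of 12 cases (median +1.37), and in 6 without Il12a-/- replicate 1. Class I genes were higher in 8 of 16 cases (+0.76), and in 4 without that replicate (+0.51). H2-DMb1 was at 19.6 to 87.4 FPKM against 4.3 to 6.78 in Nemofl/fl (+2.4, limma adjusted p = 1.4e-05). Ifi47, an immunity-related GTPase, was at 7.53 to 35.8 against 1.4 to 2.46 (+2.67, limma adjusted p = 0.00041), Nlrc5 was higher by 2.06 (limma adjusted p = 0.002) and Zbp1 by 1.67 (limma adjusted p = 0.001). Of the 18 guanylate-binding proteins and GTPases 2 were called higher, 1 without replicate 1, and Gbp2 (+1.22) and Igtp (+1.55) were not (limma adjusted p = 0.12 and 0.07). T cell genes were higher in 4 of 19 cases, but in 0 without replicate 1. Without that replicate 110 genes differed in all, 69 of them higher. All Nemofl/fl libraries carry the other library code, so code and genotype cannot be told apart here, and with code as a term 9 genes passed. All Nemofl/fl mice were also male by RNA, and with sex as a term 96 genes passed.

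The libraries labelled Il12a-/- and those labelled Il12b-/- differed in 79 genes (0.41%), of which 20 lie on chromosome 3, 16 on chromosome 7, 8 on chromosome 4 and at most 5 on any other. Limma called no member of the guanylate-binding protein and GTPase, class I or class II lists (3 of 18, 5 of 16 and 6 of 12 at an unadjusted p below 0.05). H2-Aa was at 129 to 269.9 FPKM in NEMOIEC-KO Il12b-/- (log2 difference +0.84, limma adjusted p = 0.24). Gzma was at 0.132 to 0.78 (-0.08, limma adjusted p = 1). These p-values do not show that the groups were alike. Genes that did differ included the apolipoprotein Apoc2, at 19.1 to 32.3 FPKM in the libraries labelled Il12a-/- against 72.8 to 182 (-2.2, limma adjusted p = 0.012, lost without Il12b-/- replicate 1), and Sprr2a3, a cornified envelope gene, which was higher by 1.4 (limma adjusted p = 0.002). Lrmda and the zinc finger gene Zfp991 were lower by 1.55 and 1.81 (limma adjusted p = 8.6e-05 and 0.00084). Il12b itself was at 0.79 to 1.29 FPKM in the libraries labelled Il12b-/-, above all libraries labelled Il12a-/- (-1.35, limma adjusted p = 2.6e-09), so its whole-gene value also ran against its label.

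Against NEMOIEC-KO Il23a-/-, 224 genes (1.16%) differed, and 147 were lower in the libraries labelled Il12a-/- (0.763%). Of the 18 guanylate-binding proteins and GTPases 12 were lower, of class I genes 15 of 16 and of class II genes 7 of 12. Gzma was at 1.48 to 12.8 FPKM in NEMOIEC-KO Il23a-/- (-2.79, limma adjusted p = 0.00071), Ido1 at 36.7 to 453 (-4.61, limma adjusted p = 0.0035) and H2-Aa at 943 to 1772 (-2.05, limma adjusted p = 5.7e-05). Each of these ranges lies above that of the libraries labelled Il12a-/-. The sialyltransferase St8sia5 was higher by 2.87 and Il18 by 0.91 (limma adjusted p = 0.0034 and 0.00071). Retnla, a marker of alternatively activated macrophages, was higher by 2.62 (limma adjusted p = 0.036, lost without Il12a-/- replicate 2, 3, 4 or 5 or Il23a-/- replicate 1, 3 or 4). Without Il12a-/- replicate 1 the count was 2674, with 1942 higher and 732 lower, and without 1 library in turn it reached down to 73. With sex as a term the count was 129.

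A set of 15 genes was called in the libraries labelled Il12a-/- against each of the 3 other NEMOIEC-KO genotypes in the same direction, 11 higher and 4 lower, and 11 of them lie on chromosome 3, which holds Il12a. These 3 comparisons share the libraries labelled Il12a-/-, so the count is a description and no independent support. The 11 lie 17.4 to 30.2 Mb from Il12a. Hsd3b1, a steroid dehydrogenase, was at 0.769, 0.794, 2.0, 0.753 and 0.996 FPKM against 0 to 0.19 in NEMOIEC-KO, 0.031 to 0.226 in NEMOIEC-KO Il12b-/- and 0.0129 to 0.0895 in NEMOIEC-KO Il23a-/-. Its neighbour Hsd3b3 was at 0.126 to 2.23 against 1.95 to 12.7 in NEMOIEC-KO and 22.3 to 39.3 in Nemofl/fl, so its libraries overlapped with those of NEMOIEC-KO. Cd1d2, a lipid-presenting class I-like gene, was at a mean of 0.745 ± 0.253 FPKM against 0.0187 ± 0.0134 (SD, n = 5 each). On chromosome 3 as a whole 116 of 1023 genes tested were called (11.3%), beside 13.0% on chromosome 17, where the MHC lies, and 7.35% to 11.6% on the others. Within 10 Mb of Il12a, 3 of 65 were called (4.62%): Il12a, the unnamed transcript Gm42568 and Tiparp, an ADP-ribosyltransferase, which was lower by 0.44 (limma adjusted p = 0.043, lost without Il12a-/- replicate 2, 3, 4 or 5 or NEMOIEC-KO replicate 1, 2, 3 or 5). Without replicate 1, 15.4% of those 65 were called, beside 25.1% of all genes.

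**Figure D5:**
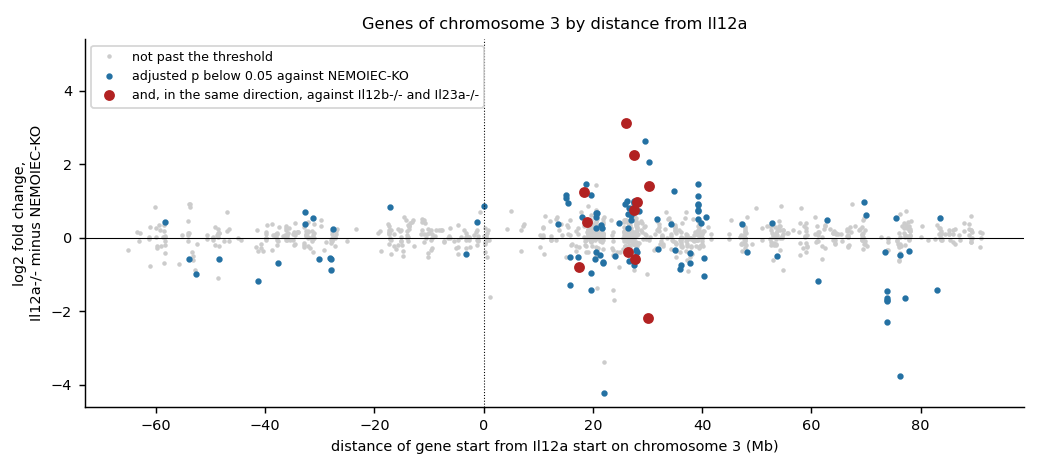
Log2 change (NEMOIEC-KO Il12a-/- minus NEMOIEC-KO) of the 1023 genes tested on chromosome 3 against the distance of their start from that of Il12a in megabases. Called genes and the 11 that also differed from both other double mutants are marked, and those 11 all lie 17.4 to 30.2 Mb from Il12a.

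The 4 others of the set lie on chromosomes 1, 13 and 14. Rps3a3 and Rps3a2 are near-identical copies of Rps3a1, a ribosomal protein gene of chromosome 3, and reads may be assigned to any of the 3. Rps3a3 was at 514 ± 65.4 FPKM in the libraries labelled Il12a-/- and 7.79 ± 0.689 in NEMOIEC-KO, and Rps3a2 at 77.4 ± 5.9 and 11.4 ± 2.7 (SD, n = 5). Rps3a1 was lower, at 591 ± 44.0 against 1028 ± 78.9 (-0.8, limma adjusted p = 8.9e-06). The sum of the 3 was 1183 ± 108 and 1047 ± 80.8, and its range in the libraries labelled Il12a-/- (1047 to 1337) overlapped with that in NEMOIEC-KO (951 to 1128). Hist1h2al, a histone gene of chromosome 13, was at 21.0 to 36.5 FPKM against 0 to 0.123 in NEMOIEC-KO, 0 to 0.112 in NEMOIEC-KO Il12b-/- and 0 to 0.111 in NEMOIEC-KO Il23a-/-, a difference seen in all 5 libraries labelled Il12a-/-, replicate 1 included.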

How the data were processed

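RNA of 25 distal colon libraries was compared, 10 of them in the main comparison. The values are FPKM per gene and library as deposited by the authors; the submitters' processing notes name TopHat2 2.0.10, Cufflinks 2.1.1, DESeq2 1.10.1 and GRCm38, without the role of each. Read counts were not used here, so absolute depth is unknown; relative depth between libraries was taken from the smallest FPKM increments. Of 49452 identifiers 49109 matched a symbol and position (GENCODE, GRCm38). Genes at 0.2 FPKM or more in at least 5 libraries (19266) were tested on log2(FPKM + 0.5) in limma 3.58.1 under R 4.3.3, with 1 mean per genotype over all 25 libraries (20 residual degrees of freedom), a trended prior, two-sided tests and Benjamini-Hochberg adjustment over all genes tested; adjusted p below 0.05 was the threshold. Fold changes contain the added 0.5 and understate those of weakly expressed genes. The test was tried on simulated data before use. Lists were summarised with Python 3.11.15 and pandas 2.3.3, by counts and medians only.

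The members and the 41 lists (685 of 714 entries tested, a gene counted once per list) were chosen with earlier results of these data known. Genes were named by a rule: Ikbkg, Il12a, Il12b and Il23a; the 12 largest increases and decreases among called genes whose groups do not overlap and whose higher group averages at least 1 FPKM (5 for each other double mutant), leaving out predicted genes and antigen receptor segments; 2 per direction in each list, or the 2 of smallest p; and called genes within 10 Mb of Il12a. A further 31 genes, and list members named only by their log2 change, were chosen after their values were seen. Some genes that the rule or these choices name are not reported here. Same-numbered libraries were not treated as pairs. Promoters came from RefSeq GRCm38.p6, which held one for 12716 symbols tested. Alternatives tried were other pseudocounts, filters, scalings and priors, the 2 groups alone, library code, sex, smooth muscle, and each library left out.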

Additional observations from a re-analysis of the deposited data

Results flagged for a closer look

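Single libraries stood far from the other 4 of their group in 13 of 136 groups of 5 tested, where chance gives about 1 in 20, and 8 of the 13 were Il12a-/- replicate 1. In that library Btnl2 (3.54 FPKM) and Ubd (33.8 FPKM) were the highest of the group, and Coq8a (11.0 FPKM) and Sult1c2 (6.83 FPKM) the lowest. Its mean log2 level was highest for other interferon-gamma targets (4.58), repair genes (4.45) and neutrophil genes (1.68), and lowest for enteric neuron and glia genes (1.29). In Il12a-/- replicate 3, Hsd3b1 (2.0 FPKM) and Il23a (0.361 FPKM) were the highest. In Il12a-/- replicate 5, the mean log2 level of the interleukin-12 family was the highest, at 1.29. In NEMOIEC-KO replicate 3, Coq8a (4.81 FPKM) and the mean log2 level of colonocyte genes (5.52) were the lowest.

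The effect of the Il12a-/- label differed from that of Il23a-/- by the direct contrast of the 2 double mutants in limma, given here as log2 differences. Negative values were found for Gzma (-2.79), Ido1 (-4.61), Ubd (-3.39), Gbp2 (-1.92), Gbp8 (-2.09), Tgtp2 (-2.31), Ifi47 (-2.03), Ifit2 (-1.66) and Btnl2 (-2.06). Positive values were found for Fcrl1, a receptor-like gene of B cells (1.78), Il12a (0.94), Hist1h2al (5.78), Hsd3b1 (1.44), Rps3a2 (2.95) and Rps3a3 (6.06). Against Il12b-/-, the differences were 5.83 for Hist1h2al, 1.37 for Hsd3b1, 2.83 for Rps3a2, 6.1 for Rps3a3 and -1.35 for Il12b.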

How the results depend on the processing

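Read counts were not used here, so no counting error is given, and 5 mice per group limit the precision. The count of genes that differed from NEMOIEC-KO (1851) was 364 with only the 2 groups fitted, 176 with library code as a term, 31 within code K002000079, 153 with smooth muscle as a covariate, and 716 with that covariate and without Il12a-/- replicate 1 (chosen after seeing the data, as were all settings that combine that replicate with another term). Leaving out 1 library gave 587 to 4836. Against Nemofl/fl (259) the counts were 136 with no filter, 415 after quantile normalization, 911 with only the 2 groups, 474 with the replicate block, 9 with library code, 96 with sex, 535 with smooth muscle, 11 with library code without replicate 1, and 82 to 246 with 1 library left out. Against Il12b-/- (79) they were 49 with only the 2 groups, 147 with smooth muscle, 51 within the code without replicate 1, and 56 to 96. Against Il23a-/- (224) they were 132 with no filter, 31 with only the 2 groups, 103 within the code, 129 with sex, 34 with smooth muscle, 73 to 2674 with 1 library left out, and, without replicate 1, 3260 with library code, 2960 within it and 36 with smooth muscle. Fits with library code or within it held 4 libraries labelled Il23a-/-. The cause of these shifts was not tested. The replicate block gave 1772 genes against NEMOIEC-KO, 1613 of them among the 1851; same-numbered libraries did not deviate together (correlations of -0.266 to 0.0829). Of 140 results on named genes, 128 of 129 kept their side of the threshold with a filter at 1 FPKM and 140 of 140 at a pseudocount of 1. The call was lost by 66 with library code, 68 with smooth muscle, 96 within code K002000079 and 60 with only the 2 groups fitted. The 140 include results that were not called in the main fit, which could not lose a call. Sign changed only in genes that were not called: Ikbkg was -0.14 to 0.06 with 1 library left out (0.06 without NEMOIEC-KO replicate 2) and 0.0 without Il12a-/- replicate 1 with smooth muscle; Il23a was -0.29 to 0.0 with 1 library left out (0.0 without NEMOIEC-KO replicate 3); with that replicate 1 out and smooth muscle, Il23a was 0.03 and Mcm3 0.16; and Reg3b was 0.05 with smooth muscle. The stricter motif occurred in 3.16% of promoters of genes called lower, and windows of 5 and 20 Mb around Il12a held 6.98% and 8.64% called.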
